A study of Mus musculus with 6 samples.

Results

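The genes of the proteasome were followed in mouse embryos at the 4-cell stage. They were taken by name from the authors' deposited gene table, as symbols that begin with Psma, Psmb, Psmc, Psmd, Psme, Psmf or Psmg and a digit. That pattern matched 54 of 29431 genes, and 5 pseudogenes marked "-ps" were dropped, which left 49. Of these 48 are subunits, activators, regulators or assembly chaperones of the proteasome, and 1, Psmc3ip, is a meiotic recombination factor that shares the prefix only and is given apart. The inducible core subunit Psmb8 was not analysed here. All embryos are wild type by their labels. The control group is 3 libraries of untreated embryos, and the other group is 3 libraries of embryos exposed to AXKO-0046, an inhibitor of lactate dehydrogenase B (LDHB), a subunit of the enzyme that interconverts lactate and pyruvate. The design text names 6 embryos for each group and does not say how many embryos a library holds. No label gives the dose or the length of exposure. Whether replicates are from different litters or cultures is not stated either, so a p-value here reflects how these libraries vary, and that variation may be technical.

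The proteasome is the protease that degrades proteins tagged with ubiquitin. Its 20S core is a barrel of stacked rings, with alpha subunits forming the outer rings and the gate, and beta subunits forming the inner rings that hold the active sites. The 19S regulatory particle caps the barrel, its base unfolding substrates with ATPases and its lid removing ubiquitin chains. In the early mouse embryo the ubiquitin-proteasome system is known to clear maternal proteins as control passes from the oocyte to the embryonic genome.

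Values are FPKM (fragments scaled for transcript length and library size), so levels of different genes are per length, and the number of reads behind them is unknown. Across libraries the table summed to between 457016 and 524538 FPKM. Genes of mitochondrial DNA took 15.1% to 18.9% of FPKM in the controls and 10.6% to 11.98% in the inhibitor libraries, which moves every nuclear gene's share, and results are therefore also given under other scalings. Inhibitor replicate 2 stood apart: 6 markers of the 2-cell stage summed to 832 FPKM there, against 8.10 to 21.2 FPKM elsewhere. Its median Pearson correlation with the others over all genes tested was 0.888, against 0.946 to 0.965. Over the proteasome genes alone that median was 0.979, against 0.983 to 0.987 in the others. Embryo and oocyte markers were present, Dppa3 at 10514 FPKM or more in every library. Of the 9 tested of 10 listed, 6 lay below 0 in fold change (median -0.23), against 42.9% of all genes tested. All inhibitor libraries lay below all controls in 2 oocyte genes of these 9, against 6.26% of all genes tested. Oosp1 was at 17.4, 15.2 and 13.1 FPKM in controls and 8.51, 3.69 and 3.92 FPKM under the inhibitor (limma adjusted p = 0.378), and Npm2 at 33.4, 30.9 and 35.7 FPKM and 23.1, 21.6 and 17.3 FPKM (limma adjusted p = 0.426). The part of this marker difference in the proteasome values was not tested. The 8 listed cumulus and granulosa markers, of which 4 had a row, summed to at most 1.05 FPKM in any library.

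Summed over the 48 proteasome genes, the level was 5572, 4958 and 4926 FPKM in control replicates 1 to 3 and 6819, 5580 and 5979 FPKM in inhibitor replicates 1 to 3. Replicate order is the same wherever values of single libraries follow. All 3 inhibitor libraries lay above the controls, the lowest of them by a small margin over control replicate 1. As a share of all FPKM the sum was 1.07%, 0.969% and 0.939% in controls and 1.39%, 1.12% and 1.31% under the inhibitor. With genes of mitochondrial DNA left out of the total, the shares were 1.26%, 1.16% and 1.16% against 1.58%, 1.26% and 1.46%, and inhibitor replicate 2 then lay slightly under control replicate 1. FPKM is scaled to library size, so these values show neither the number of cells nor the RNA per cell.

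The 19S particle did not overlap between the groups in its summed level. Its control libraries averaged 1599 ± 21.5 FPKM and its inhibitor libraries 1898 ± 139 FPKM (SD, n = 3 in either), a ratio of 1.19. Base and lid together took 0.313%, 0.310% and 0.303% of FPKM in controls and 0.419%, 0.370% and 0.393% under the inhibitor. The controls lay within a narrow band and every inhibitor library was outside it, also with mitochondrial genes left out of the total (0.368% to 0.374% against 0.416% to 0.476%). For the 20S core the shares were 0.725%, 0.623% and 0.607% in controls and 0.931%, 0.711% and 0.876% under the inhibitor, and here inhibitor replicate 2 lay inside the control range. The ratio of the means in FPKM was as large for the core, 1.20, with a wider spread between libraries.

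Of the 48 genes 45 averaged 1 FPKM or more and were tested in limma on log2(FPKM + 1), as part of the 9691 genes of the table that did so. None passed at an adjusted p of 0.05 (0 of 45; 0% of all genes in either direction), and the smallest was 0.378, for Psmb6. At an unadjusted p under 0.05 limma had 7 of the 45 higher (15.6%), against 4.72% of all genes tested, and 0 lower, against 3.8%. Fold changes were above 0 in 39 of 45 (86.7%), against 57.1% of all genes, and below 0 in 6, against 42.9%. Their median was 0.24 on the log2(FPKM + 1) scale, against 0.062. The lowest inhibitor library exceeded the highest control in 13 genes (28.9%), as it did in 9.13% of all genes, and the reverse held in 0, against 6.26%. The genes were measured in the same 6 libraries, so these counts are not separate observations.

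With median-ratio scaling 34 of 45 fold changes were above 0 (50.9% of all genes), 8 genes had all inhibitor libraries above all controls (6.86% of all genes) and 4 were at an unadjusted p under 0.05. With quantile normalization the numbers were 32 (47.0% of all genes), 7 (5.90%) and 3, and the median fold change was 0.13. Over all genes the unadjusted calls were 457 higher and 368 lower as deposited, 327 and 478 with median-ratio scaling, and 268 and 543 with quantile normalization. Relative to the median of all genes, the proteasome median was 0.18 as deposited, 0.17 with median-ratio scaling and 0.16 with quantile normalization, but 0.10 without inhibitor replicate 1 and 0.29 without inhibitor replicate 2. Without inhibitor replicate 2 the 13 genes became 22 of 45 (14.8% of all genes), and the 7 became 9 (446 of all 9691 genes). Without inhibitor replicate 1 the 7 became 3 (471 of all genes), without control replicate 1 also 3 (315), and without control replicate 3, 4 (305). Of the 13 genes whose groups did not overlap, Psma5, Psma7, Psmb6, Psmd1, Psmd12 and Psmd2 kept this under all 4 scalings. Psmb4, Psmc1, Psmc4 and Psmc5 overlapped with both median-ratio scaling and quantile normalization, Psma2 with the first, and Psmd13 and Psmg1 with the second. At an unadjusted p under 0.05, Psma5, Psmb6 and Psmd2 were among those under every other fit that was run.

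**Figure D1:**
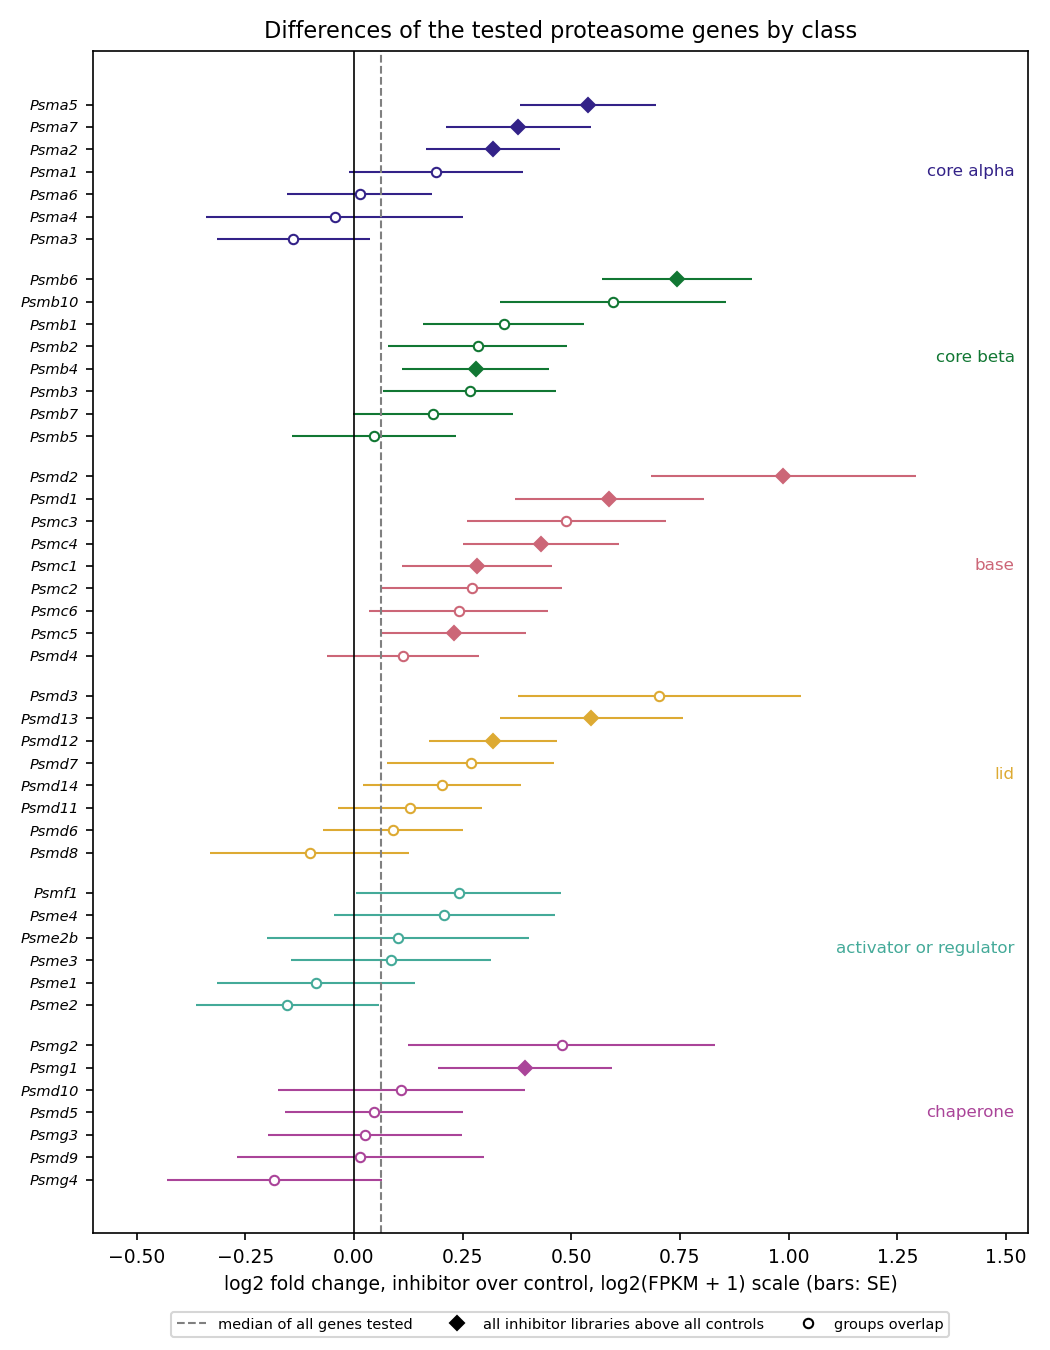
Log2 fold changes (x axis, inhibitor over control on the log2(FPKM + 1) scale, bars showing the SE) of the 45 tested proteasome genes, grouped by class, with filled diamonds where all inhibitor libraries lay above all controls and a dashed line at the median of all genes tested, 0.062. In the base all 9 points lie to the right of 0, while activators and chaperones scatter around the dashed line.

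Among the alpha subunits of the outer rings, 7 of 8 were tested, 5 had fold changes above 0 and 2 below, and the median was 0.19. With 1 library left out that median ran from 0.063, when control replicate 3 was dropped, to 0.33, when inhibitor replicate 2 was. It was 0.11 and 0.12 when inhibitor replicates 1 and 3 were dropped, 0.31 when control replicate 1 was, 0.12 with median-ratio scaling or quantile normalization, and 0.10 with no filter on low values. Psma5, the alpha5 subunit (ENSMUSG00000068749, chromosome 3, 108256926 to 108279974, plus strand, GRCm38), was at 438, 365 and 377 FPKM in controls and at 627, 521 and 566 FPKM under the inhibitor. The groups were well apart, and the difference was 0.54 on the log2 scale (SE 0.16, limma adjusted p = 0.426). Psma7, or alpha4 (ENSMUSG00000027566, chromosome 2, 180036374 to 180042433, minus strand), was at 171, 172 and 131 FPKM in controls and at 195, 210 and 209 FPKM under the inhibitor. The inhibitor libraries lay close together above all controls, of which replicate 3 was the low one (0.38, SE 0.17, limma adjusted p = 0.590). Psma2, or alpha2, was at 211, 190 and 178 FPKM and at 262, 229 and 233 FPKM, again without overlap (0.32, SE 0.15, limma adjusted p = 0.609).

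The most abundant gene of the whole set, Psma6 (alpha1), differed between the groups by less than its spread. It was at 953, 788 and 796 FPKM in controls and at 999, 782 and 787 FPKM under the inhibitor, with replicate 1 highest in each group (0.013, SE 0.17, limma adjusted p = 0.988). Psma5 relative to Psma6, a ratio that no single factor per library can change, was 0.459, 0.463 and 0.474 in controls and 0.628, 0.666 and 0.720 under the inhibitor. It was 1 of 9 ratios formed with the values already known and is given without a test. Of the 9, 4 did not overlap between the groups and 5 did. Those 4 all have Psma5, Psmb6 or Psmd2 as numerator, the genes with the 3 smallest limma p. Their separation therefore follows in part from that choice. Psma6 relative to Psma4 overlapped, at 6.91 to 7.72 in controls and 5.62 to 10.6 under the inhibitor. Psma4, alpha3 and part of the gate, had the widest spread of the alpha genes, at 123.3, 102 and 115 FPKM in controls and 178, 73.7 and 101 FPKM under the inhibitor, whose libraries lay on both sides of the controls. Psma1 and Psma3 overlapped between the groups, with fold changes of 0.19 and -0.14. Psma8, the germline counterpart of Psma7, was listed at 0.0182, 0.439 and 0.989 FPKM in controls and at 0.647, 0.399 and 0.130 FPKM under the inhibitor, and was not tested.

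The beta subunits hold the active sites, and 8 of 10 were tested, all with fold changes above 0 (median 0.28, and 0.43 without inhibitor replicate 2). Psmb6, the beta1 subunit with caspase-like activity (ENSMUSG00000018286, chromosome 11, 70525367 to 70527858, plus strand), was at 207, 166 and 196 FPKM in controls and at 359, 273 and 323 FPKM under the inhibitor. Its lowest inhibitor library lay well above its highest control, and the mean was 168% of the control mean (log2 fold change 0.74, SE 0.17, limma adjusted p = 0.378). Psmb7, or beta2, with trypsin-like activity, was at 54.1, 46.1 and 42.0 FPKM in controls and at 61.1, 49.2 and 51.3 FPKM under the inhibitor. Psmb5, or beta5, with chymotrypsin-like activity and the target of proteasome drugs such as bortezomib, was at 173, 155 and 156 FPKM and at 199, 175 and 132 FPKM. For both of these the groups overlapped, with fold changes of 0.18 (SE 0.18, limma adjusted p = 0.780) and 0.045 (SE 0.19, limma adjusted p = 0.960), the second turning to -0.020 with median-ratio scaling and -0.032 with quantile normalization.

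The ratios among the catalytic transcripts, which were formed with the values known and are not tested, were as follows. Psmb6 stood at 3.83, 3.59 and 4.65 times Psmb7 in controls and at 5.87, 5.55 and 6.29 times Psmb7 under the inhibitor, without overlap. Relative to Psmb5 it was at 1.20, 1.07 and 1.25 times in controls and at 1.81, 1.56 and 2.45 times under the inhibitor. Psmb10 relative to Psmb7 overlapped between the groups, at 0.164 to 0.313 in controls and 0.281 to 0.390 under the inhibitor. Among the beta subunits without protease activity, Psmb2 (beta4) was the most abundant, at 561, 445 and 445 FPKM in controls and at 664, 445 and 680 FPKM under the inhibitor. Its inhibitor replicate 2 matched the lower controls while the others were above all of them. Psmb4 had all inhibitor libraries above all controls, and Psmb1 and Psmb3 did not, with fold changes of 0.28, 0.34 and 0.27 in that order.

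Inducible beta subunits replace the standard ones in the immunoproteasome. Psmb10, which takes the place of Psmb7 (ENSMUSG00000031897, chromosome 8, 105935735 to 105938444, minus strand), was at 8.86, 14.4 and 12.5 FPKM in controls and at 21.8, 13.8 and 19.97 FPKM under the inhibitor. Inhibitor replicate 2 lay inside the control range, the others above it (0.60, SE 0.26, limma adjusted p = 0.587). Psmb9, which takes the place of Psmb6, was listed at 0.0341, 0.0745 and 0.136 FPKM in controls, at 0.214 FPKM in inhibitor replicate 1 and at 0 in the other inhibitor libraries. Psmb11, the thymic form, was at most 0.438 FPKM in any library. Of 10 interferon-response and antigen-processing genes 3 were tested, B2m, H2-D1 and Tapbp, with a median of 0.12 and 0 at an unadjusted p under 0.05. Irf1, Nlrc5 and Tap1 were each under 1 FPKM in every library. Leukocyte markers, of which 4 of 5 had a row, summed to 0.907 to 1.548 FPKM in controls and 1.94 to 7.18 FPKM under the inhibitor. Cd74 made up most of it in the inhibitor libraries, at 1.94, 6.72 and 4.02 FPKM, Cd3e was listed at 0 there, and the part of such cells in the Psmb10 values was not tested.

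**Figure D2:**
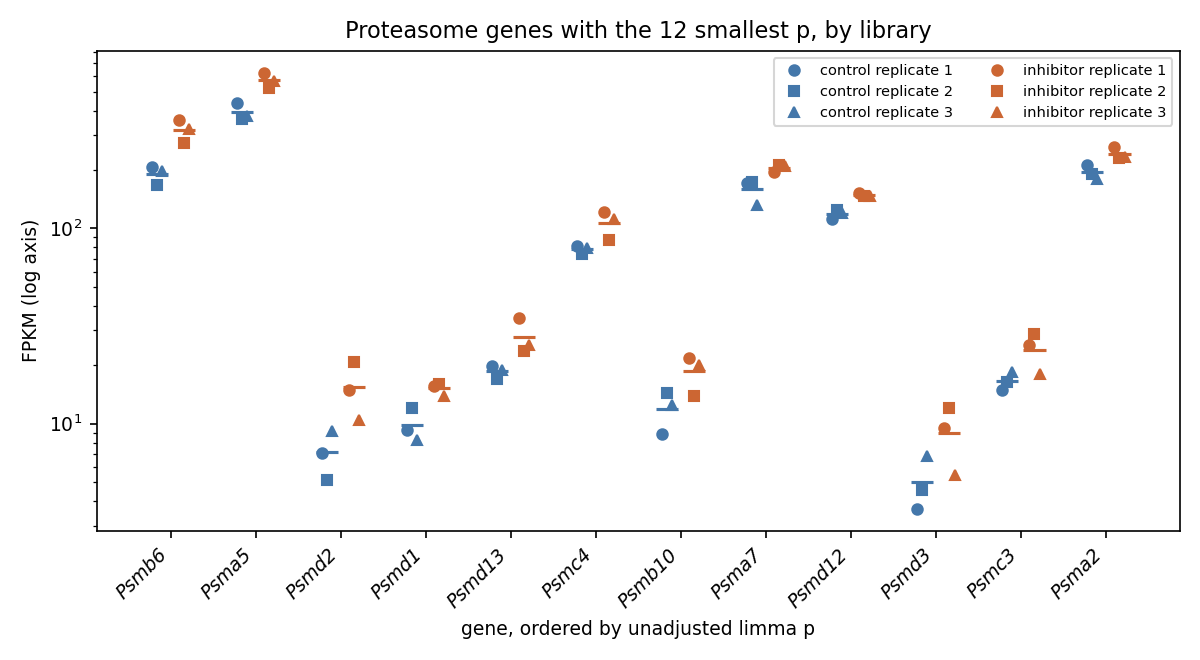
FPKM (y axis, log scale) of the 12 proteasome genes with the smallest unadjusted p, in each library, with controls in blue, inhibitor libraries in orange, marker shapes for replicates and short lines for group means. For Psmb6 the controls reach 207 FPKM and the inhibitor libraries start at 273 FPKM, while Psmb10, Psmd3 and Psmc3 overlap between the groups.

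In the base all 9 genes were tested, and all 9 lay above 0 in fold change (median 0.28). Psmd2, or Rpn1, the scaffold on which shuttle receptors dock (ENSMUSG00000006998, chromosome 16, 20651652 to 20663414, plus strand), was at 7.04, 5.14 and 9.21 FPKM in controls and at 14.9, 20.7 and 10.4 FPKM under the inhibitor. The inhibitor mean was 215% of the control mean, the highest ratio of the 45 genes, though inhibitor replicate 3 was only slightly above control replicate 3 (0.99, SE 0.30, limma adjusted p = 0.440). Psmd1, or Rpn2, the other large scaffold (ENSMUSG00000026229, chromosome 1, 86064387 to 86139151, plus strand), was at 9.28, 11.995 and 8.22 FPKM in controls and at 15.6, 15.96 and 13.8 FPKM under the inhibitor, without overlap (0.59, SE 0.22, limma adjusted p = 0.514). Psmd4, or Rpn10, a receptor for ubiquitin chains, differed little, with a fold change of 0.11 and overlapping groups.

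The ATPases of the base form 1 ring, Psmc1 to Psmc6, and their fold changes lay between 0.23 and 0.49. Psmc4 (Rpt3; ENSMUSG00000030603, chromosome 7, 28041707 to 28050101, minus strand) was at 81.5, 73.8 and 79.7 FPKM in controls and at 121, 87.4 and 112 FPKM under the inhibitor, with replicate 2 nearest to the controls (0.43, SE 0.18, limma adjusted p = 0.572). Psmc3 (Rpt5) was at 14.8, 16.3 and 18.5 FPKM in controls and at 25.2, 28.7 and 17.9 FPKM under the inhibitor, where replicate 3 lay inside the control range (0.49, SE 0.23, limma adjusted p = 0.608). Psmc5 (Rpt6), the most abundant gene of the base, was at 182, 180 and 161 FPKM and at 191, 241 and 185 FPKM, without overlap but by a narrow margin (0.23, SE 0.17, limma adjusted p = 0.713). Psmc1 was also without overlap, and Psmc2 and Psmc6 overlapped.

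All 8 genes of the lid were tested, 7 of them above 0 in fold change and 1 below (median 0.24). Psmd13, or Rpn9 (ENSMUSG00000025487, chromosome 7, 140881968 to 140898643, plus strand), was at 19.7, 17.0 and 18.7 FPKM in controls and at 34.6, 23.6 and 25.1 FPKM under the inhibitor. The controls were tight and all inhibitor libraries were above them (0.55, SE 0.21, limma adjusted p = 0.534). Psmd12, or Rpn5 (ENSMUSG00000020720, chromosome 11, 107479484 to 107504362, plus strand), was at 112, 124 and 119 FPKM and at 151, 146 and 146 FPKM, with the inhibitor libraries close together above all controls (0.32, SE 0.15, limma adjusted p = 0.607). Psmd3, or Rpn3, the least abundant subunit of the lid, was at 3.67, 4.59 and 6.83 FPKM in controls and at 9.50, 11.97 and 5.47 FPKM under the inhibitor, with replicate 3 inside the control range (0.70, SE 0.32, limma adjusted p = 0.608). Psmd7, or Rpn8, the structural partner of the deubiquitinase Psmd14, was the most abundant, at 311, 247 and 285 FPKM and at 397, 360 and 268 FPKM. The ratio of Psmd14 to Psmd3 overlapped, at 24.4 to 40.0 in controls and 12.4 to 39.4 under the inhibitor. Psmd14 itself, or Rpn11, had a fold change of 0.20 and overlapping groups, as did Psmd6 and Psmd11, and Psmd8 was at -0.10.

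Some activators bind the core in place of the 19S cap. All 6 genes of this class were tested, 4 of them above 0 in fold change and 2 below, and in 0 of them did the inhibitor libraries lie on 1 side of the controls, where 9.13% of all genes lay above and 6.26% below. Psme1 and Psme2, the PA28 alpha and beta subunits that interferon induces, were at 14.3, 12.7 and 9.72 FPKM and at 8.14, 8.10 and 6.96 FPKM in controls. Under the inhibitor Psme1 was at 12.9, 10.0 and 11.3 FPKM (-0.088, SE 0.23, limma adjusted p = 0.929) and Psme2 at 6.67, 6.55 and 7.32 FPKM (-0.15, SE 0.21, limma adjusted p = 0.841). Psme2b, a near-identical copy of Psme2, was at 2.74, 4.496 and 4.61 FPKM in controls and at 4.76, 5.66 and 2.71 FPKM under the inhibitor.

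Psme3, the nuclear PA28 gamma, was the most abundant of the activators, at 24.8, 27.1 and 23.9 FPKM in controls and at 23.2, 36.7 and 22.6 FPKM under the inhibitor. Its fold change of 0.085 rested on inhibitor replicate 2 and was -0.13 without it, and -0.016 with quantile normalization. Psme4, or PA200, a nuclear activator known for its part in the removal of histones during spermatogenesis, was at 5.33, 5.54 and 8.75 FPKM and at 6.57, 7.55 and 8.62 FPKM (0.21, SE 0.25, limma adjusted p = 0.822). Psmf1, or PI31, which binds the core and was first described as an inhibitor, was at 10.6, 9.46 and 8.09 FPKM and at 14.0, 9.03 and 11.1 FPKM (0.24, SE 0.24, limma adjusted p = 0.775). The median of the class, 0.093, was -0.0051 with quantile normalization and -0.040 without inhibitor replicate 2. The ratios of Psme3 to Psme1 (1.73 to 2.45 in controls, 1.80 to 3.66 under the inhibitor) and of Psme2b to Psme2 (0.337 to 0.662 and 0.370 to 0.864) overlapped. Whether activators and subunits differ in their response was not tested.

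Assembly chaperones guide the rings and the base together and leave the finished particle. All 7 were tested, 6 of them above 0 in fold change and 1 below, and their median was 0.046. It was -0.016 with median-ratio scaling, -0.065 with quantile normalization, -0.026 without inhibitor replicate 1 and -0.040 without control replicate 3. Psmg1, or PAC1, which pairs with Psmg2 on the alpha ring, had all inhibitor libraries above all controls, at 29.4, 28.2 and 29.6 FPKM against 25.5, 17.7 and 23.1 FPKM (0.39, SE 0.20, limma adjusted p = 0.628). Psmg3, or PAC3, the most abundant of them, was at 33.5, 26.7 and 21.2 FPKM in controls and at 28.4, 30.2 and 23.5 FPKM under the inhibitor, and its partner Psmg4 had a fold change of -0.18. Psmg2 had a fold change of 0.48 (SE 0.35), with control replicate 3 its lowest library at 4.48 FPKM. Of the base chaperones, Psmd9 (p27) was the least abundant, at 6.55, 4.61 and 5.001 FPKM and at 6.77, 6.47 and 3.51 FPKM, and Psmd5 and Psmd10 (gankyrin) had fold changes of 0.046 and 0.11 with overlapping groups. Psmc3ip, which is no proteasome gene, was at 77.3, 75.5 and 74.9 FPKM in controls and at 75.9, 90.6 and 87.9 FPKM under the inhibitor (0.15, SE 0.16, limma adjusted p = 0.787).

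**Figure D3:**
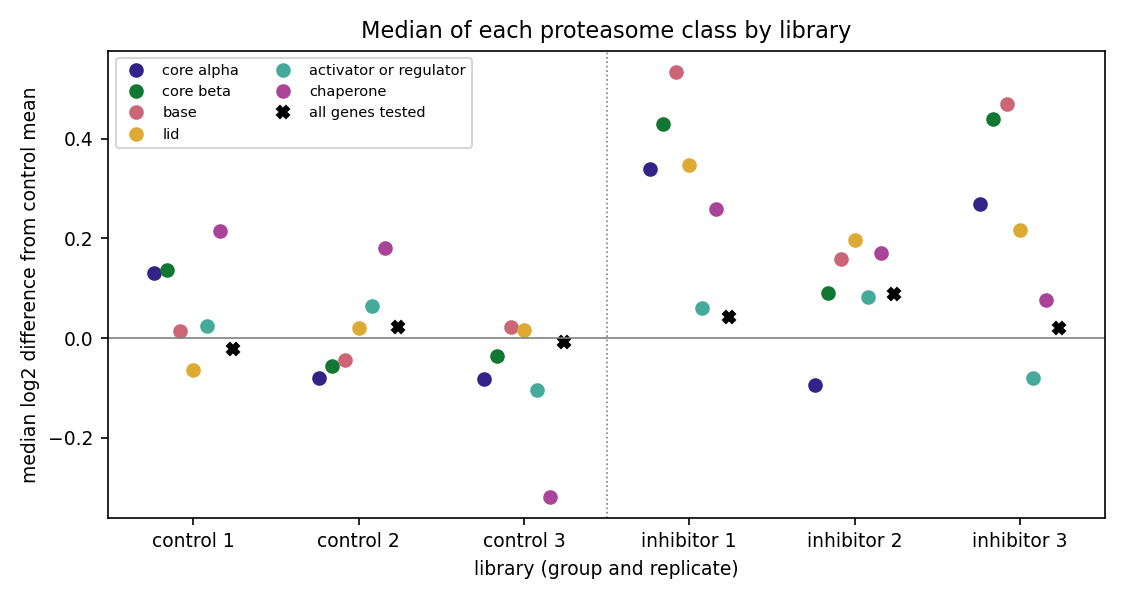
Median over each class of the log2 difference from the control mean (y axis, log2(FPKM + 1) scale) in each of the 6 libraries (x axis), with a black cross for all genes tested. Core, base and lid medians lie highest in inhibitor replicates 1 and 3, and in inhibitor replicate 2 the alpha subunits are at -0.094 while all genes are at 0.088.

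Library by library, the median proteasome gene lay 0.35, 0.15 and 0.16 above the control mean in the inhibitor libraries on the log2(FPKM + 1) scale, and at 0.082, -0.020 and -0.060 in the controls. In inhibitor replicate 1, 42 of 45 genes were above the mean of the controls, and in replicates 2 and 3, 30 each, while control replicates had 32, 19 and 17. Control replicate 1 thus had more than inhibitor replicates 2 and 3. Of all 9691 genes 5250, 5527 and 5024 were above the control mean in the inhibitor libraries, and 4473, 5250 and 4714 in the controls. Each control is itself part of that mean. After the median of all genes in the same library was subtracted, the values were 0.31, 0.067 and 0.14 under the inhibitor and 0.10, -0.041 and -0.052 in controls. On that footing inhibitor replicate 2 lay below control replicate 1, so the groups overlapped.

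Levels were far from equal, although the finished proteasome holds its standard core, base and lid subunits in fixed proportion. Over the 45 tested genes, mean FPKM per length over the 6 libraries ran from 851 for Psma6 to 4.16 for Psme2b, 204 times lower. Psme2b is an activator gene and Psmb10 an inducible subunit, so neither is among these standard subunits. Of the tested core, base and lid genes, Psmd3 had the lowest mean. It was at most 11.97 FPKM in any library, against at least 782 FPKM for Psma6. Of the 32 tested core, base and lid genes 26 averaged 50 FPKM or more, and the other 6 were Psmd13, Psmc3, Psmb10, Psmd1, Psmd2 and Psmd3. All of these were among the 12 genes with the smallest p, but none of the 13 tested activators and chaperones, which were also under 50 FPKM, was. The chaperone Psmg1 came next, at rank 13, so this contrast depends on where the list is cut. The limit of 50 FPKM was set with the values known. Psmd2 stood at 0.0422, 0.0322 and 0.0551 times the level of its neighbour in the base Psmd4 in controls and at 0.0709, 0.114 and 0.0706 times under the inhibitor. Among the 44 pairs of neighbours in the order of levels, 41 had overlapping ranges over the 6 libraries. The gaps were between Psma6 and Psmb2, between Psmc2 and Psmb7, and between Psmb7 and Psmg3. Between the groups the order was nearly the same, with a Spearman correlation of mean FPKM of 0.985 over the 45 genes, a description across genes that share libraries. Psma3 and Psmd2 moved farthest, by 6 places each.

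**Figure D4:**
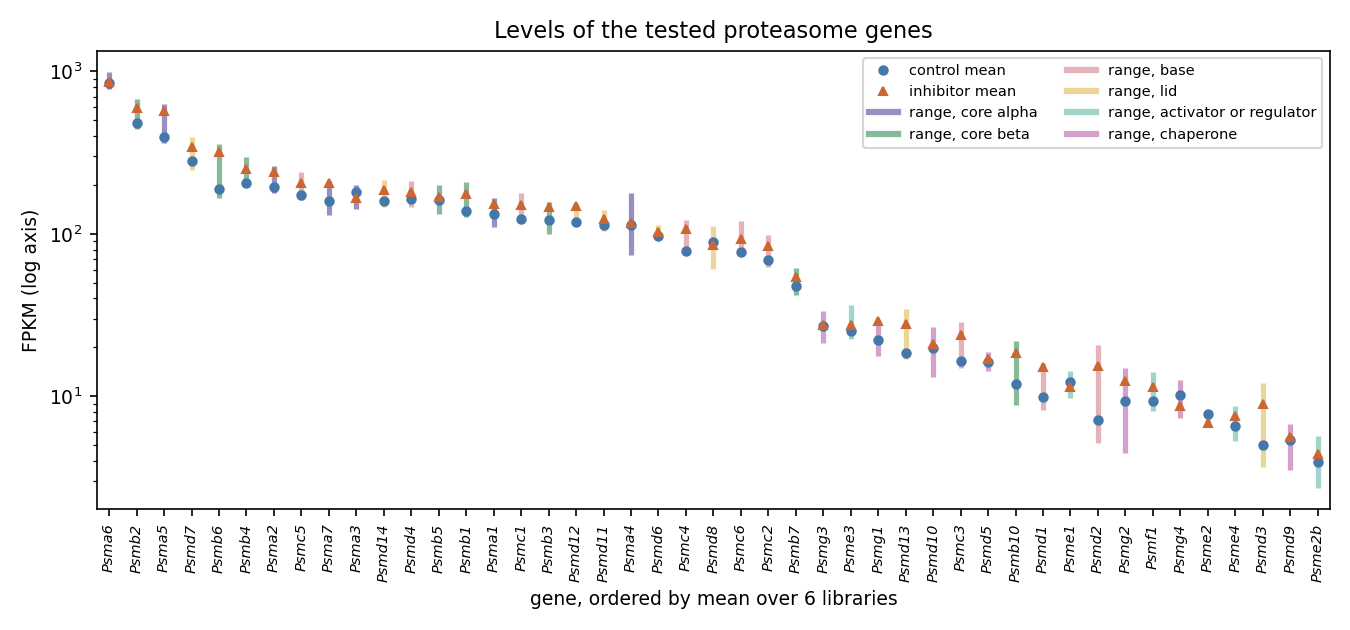
Mean FPKM (y axis, log scale) of the 45 tested proteasome genes in controls (circles) and inhibitor libraries (triangles), ordered by the mean over all 6 libraries, with bars for the range over the libraries coloured by class. Psma6 leads at 851 FPKM, and the level drops from 76.5 FPKM at Psmc2 to 50.6 FPKM at Psmb7 and 27.3 FPKM at Psmg3.

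Some of these values are uncertain because other transcripts are nearly identical. Of the 45 tested genes 9 had a copy with at least 95% identity over at least 50% of the transcript. For Psmb5 the copy is the processed pseudogene Gm3375, which matched 88.4% of the transcript at 98.9% identity and was listed at 192, 181 and 172 FPKM in controls and at 227, 184 and 141 FPKM under the inhibitor. That is 111% of the level of Psmb5 itself, in the same order across the inhibitor libraries, so the level of Psmb5 and the ratio of Psmb6 to it may change if reads are divided otherwise. Psma5 has such copies in Psma5-ps and Gm12989, at 6.87% and 10.7% of its level. Both had all inhibitor libraries above all controls, Psma5-ps at 29.8, 23.5 and 26.2 FPKM against 42.6, 34.6 and 42.1 FPKM. Psmb3, Psma4, Psmc1, Psmd2 and Psmd11 have copies listed at 0.0718% to 7.10% of their level on average, and the one with Psme2 and Psme2b is between themselves, at 99.4% identity. Among the 36 tested genes with no such copy, a split made after seeing the data, 32 lay above 0 in fold change (median 0.24), 10 had all inhibitor libraries above all controls (9.13% of all genes) and 5 were at an unadjusted p under 0.05 on the higher side (4.72% of all genes). Exons of 14 of the 49 genes, among them Psmc3ip and the untested Psmb9, overlap another gene. Those with a level were mostly low, while the genes that overlap Psmd9 and Psme2b have no row. Strand is not stated, so reads of overlapping genes cannot be told apart.

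Transcription of proteasome genes is known to be raised by NFE2L1 through antioxidant response elements when the protease is inhibited, and promoters of 40 of the 48 genes were found in RefSeq on GRCm38.p6, each 300 bases that span the start and lie mostly before it. The sequences of 4 are shown because they carry the motifs searched in genes with contrasting values: Psmb6 and Psmb5 share the element, Psmd2 an ETS site, and Psmd12 has both. Each is 5′ to 3′ on the strand of its gene, with matches in capitals. Coordinates are chr11:70525107-70525406 (plus strand) for Psmb6, chr14:54617946-54618245 (minus strand) for Psmb5, chr16:20651402-20651701 (plus strand) for Psmd2 and chr11:107479278-107479577 (plus strand) for Psmd12.
Psmb6: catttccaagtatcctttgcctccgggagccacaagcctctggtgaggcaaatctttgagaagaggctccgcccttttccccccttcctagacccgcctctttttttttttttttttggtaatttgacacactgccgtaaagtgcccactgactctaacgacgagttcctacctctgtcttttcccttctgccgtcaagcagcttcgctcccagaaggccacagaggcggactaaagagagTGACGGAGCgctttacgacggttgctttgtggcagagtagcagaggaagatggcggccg
Psmb5: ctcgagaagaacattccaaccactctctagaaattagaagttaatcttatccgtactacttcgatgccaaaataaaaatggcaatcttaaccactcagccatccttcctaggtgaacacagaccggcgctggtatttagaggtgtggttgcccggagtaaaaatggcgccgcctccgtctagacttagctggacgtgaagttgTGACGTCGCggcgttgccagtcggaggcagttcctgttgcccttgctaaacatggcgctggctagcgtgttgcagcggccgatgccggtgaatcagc
Psmd2: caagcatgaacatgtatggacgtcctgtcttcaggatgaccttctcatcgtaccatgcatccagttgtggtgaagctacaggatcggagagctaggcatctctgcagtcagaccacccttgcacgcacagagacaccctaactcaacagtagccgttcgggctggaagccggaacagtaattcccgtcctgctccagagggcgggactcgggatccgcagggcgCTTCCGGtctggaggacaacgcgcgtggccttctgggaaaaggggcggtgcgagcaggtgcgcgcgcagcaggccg
Psmd12: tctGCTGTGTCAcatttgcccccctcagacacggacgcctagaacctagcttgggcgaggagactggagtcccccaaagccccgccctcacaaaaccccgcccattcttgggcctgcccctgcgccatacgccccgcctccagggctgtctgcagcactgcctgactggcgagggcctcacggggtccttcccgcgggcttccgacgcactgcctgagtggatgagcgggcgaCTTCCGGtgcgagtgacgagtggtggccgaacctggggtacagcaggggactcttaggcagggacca
In Psmb6 the match TGACGGAGC begins 9 bases before the start, and in Psmb5 TGACGTCGC begins 47 bases before it. The ETS match is on the opposite strand in Psmd2 and Psmd12, as CTTCCGG, 26 and 17 bases before the start.

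The motifs searched, on both strands, were TGACNNNGC, CCAAT and CCGGAAG, each counted on its own, so that a stretch could count for more than 1. TGACNNNGC, the core of the antioxidant response element, was in 6 of 41 promoters of tested proteasome genes (14.6%), against 12.4% of all 32851 promoters and 14.9% of those of genes tested. CCAAT, the NF-Y box, was in 12 (29.3%), against 37.4% and 40.1%. CCGGAAG, an ETS site, was in 15 (36.6%), against 8.86% and 21.3%. The median GC content was 57.3% in the proteasome promoters, 52.7% in all and 60.0% in those of genes tested. Tested genes with the ETS letters had a median fold change of 0.22 (14 genes, all above 0) and those without 0.20 (24 genes, 18 above 0). With TGACNNNGC the median was 0.22 in 6 genes and without it 0.20 in 32, while with CCAAT it was 0.20 in 12 and without it 0.22 in 26. These matches are descriptions of letters in a window and say nothing of binding.

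Genes that act with the proteasome but lie outside the name pattern were read from a list of 25, of which 18 were tested, 15 of them above 0 in fold change and 3 below (median 0.12), where 57.1% of all genes were above 0. Uchl5, the deubiquitinase that docks on the particle, was the 1 gene of these 18 at an unadjusted p under 0.05 on the higher side, where 4.72% of all genes were, at 34.4, 42.1 and 33.7 FPKM in controls and at 53.1, 46.0 and 54.4 FPKM under the inhibitor (0.47, SE 0.18, limma adjusted p = 0.534). Its receptor Adrm1, or Rpn13, was at 64.7, 53.2 and 71.8 FPKM and at 107, 109 and 62.7 FPKM, with inhibitor replicate 3 inside the control range (0.52, SE 0.25, limma adjusted p = 0.609). Sem1, the small lid subunit, was at 53.7, 42.5 and 41.3 FPKM and at 47.1, 75.3 and 71.4 FPKM. Pomp, which matures the core, was at 65.8, 56.8 and 51.6 FPKM and at 81.3, 65.8 and 66.6 FPKM, where inhibitor replicate 2 was barely above control replicate 1 (0.29, SE 0.18, limma adjusted p = 0.674).

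The named regulators of proteasome genes, Nfe2l1 and Ddi2, overlapped between the groups, as did Akirin2. These are RNA levels and do not show how active the proteins were. Nfe2l1, the transcription factor, was at 1.28, 1.40 and 1.21 FPKM in controls and at 1.77, 1.60 and 0.902 FPKM under the inhibitor (0.058, SE 0.25, limma adjusted p = 0.962). Ddi2, the protease that activates it, averaged 3.46 FPKM ± 1.18 and 3.92 FPKM ± 0.433 (SD, n = 3 each), with overlapping groups. Akirin2, which is known from human cells to carry proteasomes into the nucleus, was at 30.2, 33.0 and 37.6 FPKM and at 26.8, 30.9 and 24.3 FPKM (-0.29, SE 0.19, limma adjusted p = 0.688). In a list of 16 genes of ubiquitin supply and delivery 15 were tested, 11 of them above 0 in fold change and 4 below (median 0.13). Of all genes 57.1% were above 0. All inhibitor libraries lay above all controls in 0 of the 15 and below them in 1, Ubxn7, against 9.13% and 6.26% of all genes. Vcp, the ATPase that extracts ubiquitinated proteins, was the 1 of these 15 at an unadjusted p under 0.05 on the higher side, against the same 4.72%, at 6.35, 7.80 and 10.97 FPKM in controls and at 15.8, 24.3 and 9.76 FPKM under the inhibitor, with replicate 3 inside the control range (0.85, SE 0.34, limma adjusted p = 0.549).

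None of the 49 genes (0) carried the mark of a changed gene in the authors' deposited table, against 0.792% of all genes listed. That mark goes with a q-value under 0.05 and a log2 fold change of 1 or more in size. The authors' deposited table had 6 of the 49 at a p-value under 0.05, against 7.52% of all genes in it. Psmb6 had the smallest there, with a log2 fold change of 0.75 and a q-value of 0.153 in the authors' deposited table, followed by Psmd2 with 1.10 and 0.158.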

How the data were processed

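RNA of mouse 4-cell embryos was measured in 3 untreated and 3 inhibitor libraries, with full-length complementary DNA primed by oligo(dT) and amplified by PCR, per the labels' protocols. Per the submitters' processing notes DESeq2, edgeR, StringTie 2.1.6, cutadapt 1.9 and HISAT2 2.2.1 were used on GRCm38. The role of each is not stated. The deposited values are FPKM for each gene in each library. Per the file headers they come with a fold change, its log2, a p-value and a q-value. For Psmb6 that fold change, 1.68, equals the ratio of the group means. Depth is unknown, so no counting interval is given.

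Groups came from the sample titles. A trended, robust fit in limma 3.58.1 (R 4.3.3) took log2(FPKM + 1) of every gene averaging 1 FPKM or more, adjusted by Benjamini-Hochberg over all of them at 0.05. This scale understates fold changes of low genes. The fit was also run on simulated data with noise drawn independently for each value. That does not test it for a library that stands apart or for genes that vary together. The genes and lists were chosen with earlier results of these data known. Values of each library are given for the 12 genes with the smallest p, the catalytic subunits, Psma7, Psma8, the activators, and the most and least abundant tested gene of each class. Psmg1, Psmg2, Psma3, Psmb4 and the other genes given by fold change only, and Psmc3ip, were named outside that rule with their values known. Coordinates and transcripts came from GENCODE M21 (GRCm38), in which all 49 identifiers were found, copies from BLAST 2.17.0 and promoters from RefSeq on GRCm38.p6. Alternatives covered the pseudocount, filter, scaling, variance model, replicate block and each library left out, and the genes without copies, which was added after seeing the data.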

Additional observations from a re-analysis of the deposited data

How the results depend on the processing

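Under every alternative run that kept the 45 tested proteasome genes, 32 to 41 had fold changes above 0, against 47.0% to 58.4% of all genes. None passed at an adjusted p of 0.05 in limma, where the smallest was 0.275, for Psmb6 with library weights. The count with all inhibitor libraries above all controls, 13, was 8 with median-ratio scaling, 7 with quantile normalization and 13 to 22 with 1 library left out, where the share of all genes went from 9.13% to between 13.5% and 19.6%. The count with all inhibitor libraries below, 0 (607 of all 9691 genes), was 4 without inhibitor replicate 1 (1103 of all genes). It was 1 without inhibitor replicate 2 (1099), 1 without inhibitor replicate 3 (1168) and 2 without control replicate 3 (1035). The count at an unadjusted p under 0.05 on the higher side was 7 (457 of all genes). It was 4 with median-ratio scaling (327 of all genes) and 3 with quantile normalization (268). With 1 library left out it was 3 to 9, while that of all genes was 293 to 748. The median fold change, 0.24, was 0.13 with quantile normalization. The activator median was -0.0051 with quantile normalization and -0.040 to 0.16 with 1 library left out. The chaperone median was -0.016 with median-ratio scaling, -0.065 with quantile normalization and -0.040 to 0.14 with 1 library left out. Over all genes 0 were called higher and 0 lower, and with 1 library left out 0 to 11 higher and 0 to 1 lower. The cause was not tested.

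Of the 27 tested proteasome genes that the rule selects for library values 8 changed sign under some alternative. With median-ratio scaling Psma6 was at -0.053, Psmb5 at -0.020, Psmd9 at -0.042 and Psmg3 at -0.038. With quantile normalization Psmb5 was at -0.032, Psmd9 at -0.099, Psmg3 at -0.087 and Psme3 at -0.016. With library weights Psma4 was at 0.15. With 1 library left out the fold change ran from -0.10 to 0.10 for Psma6, -0.083 to 0.21 for Psmb5, -0.23 to 0.025 for Psme1, -0.13 to 0.27 for Psmd9, -0.13 to 0.18 for Psmg3, -0.39 to 0.24 for Psma4, -0.089 to 0.35 for Psme2b and -0.13 to 0.20 for Psme3.

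The labels do not say whether replicate numbers pair the libraries. Deviations of same-numbered libraries from their group means correlated at 0.14, 0.20 and 0.037, and those of differently numbered libraries at -0.19 to 0.055. Control replicate 3 correlated best with inhibitor replicate 1. Deviations within a group depend on one another, so these values cannot decide whether the libraries are paired. With the replicate number as a block 39 of 45 genes were above 0 (57.1% of all genes) and the median was 0.24. In that limma fit 6 were at an unadjusted p under 0.05 on the higher side (485 of all 9691 genes), and the smallest adjusted p was 0.536. Depth is unknown, so how far counting error limits the low genes cannot be given.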
